A study of Saccharomyces cerevisiae with 12 samples.

Results

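The structural GAL genes, *GAL1* (YBR020W), *GAL10* (YBR019C), *GAL7* (YBR018C) and *GAL2* (YLR081W), were examined for acetylated histone H4 (AcH4) in yeast grown on glucose. Their members are the tiling probes whose centre lay between positions 273700 and 281300 of chromosome 2, which hold *GAL7*, *GAL10* and *GAL1*, or between 289500 and 292600 of chromosome 12, which hold *GAL2*. These windows held 38 of the 41480 nuclear probes, 27 on chromosome 2 and 11 on chromosome 12. No measured value was used to choose them. AcH4 was measured by chromatin immunoprecipitation (ChIP) on 2-color tiling arrays in *rco1*Δ, *rsc1*Δ, *rsc2*Δ and wild type cells, with 3 biological repeats of each strain, every repeat on 1 array. Cy5 labelled the immunoprecipitated (IP) material and Cy3 the input. All cultures grew in YPD, a rich medium whose sugar is glucose, so no galactose-induced sample was part of the comparison. The wild type was BY4741, a haploid laboratory strain (MATa, his3Δ1 leu2Δ0 met15Δ0 ura3Δ0). The *rco1*Δ strain carried a KANMX6 replacement of *RCO1* in that background. The *rsc1*Δ and *rsc2*Δ array strains are given by their deletion alone.

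The GAL genes turn galactose into a form that glycolysis can use. Gal2 is the permease that brings galactose into the cell, Gal1 is the galactokinase, Gal7 is the galactose-1-phosphate uridyltransferase, and Gal10 carries the mutarotase and epimerase activities. *GAL1* and *GAL10* are transcribed away from each other from a shared region that holds binding sites for the activator Gal4, and *GAL7* lies behind *GAL10* and reads in the same direction as it. In glucose Gal80 masks Gal4 and the repressor Mig1 acts at these promoters, so the genes are silent, although a noncoding RNA is known to start within the 3′ part of *GAL10* and to run antisense to it toward *GAL1*. Rco1 is a subunit found only in Rpd3S, the histone deacetylase that acts over transcribed ORFs marked by the methyltransferase Set2. Rsc1 and Rsc2 are bromodomain subunits of alternative forms of the RSC chromatin remodeling complex.

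Values are log2 ratios of IP over input, with the median probe of each array at 0, so a value of -2 lies 2 units below the middle of that array. Because the arrays give relative values, each level is also given as a percentile among the nuclear probes of its own array. Probes of the windows were 53 to 60 nt long and their centers lay a median of 287 bp apart. Their positions are those of the array design (sacCer1), whereas the gene ends used to sort them equal those of a later assembly (R64), so the part assigned to a probe at a gene end is approximate. At the deleted genes, whose ends came from the same later table, the input was lost at all 10 probes inside *RSC1* in *rsc1*Δ, all 9 inside *RSC2* in *rsc2*Δ and all 7 inside *RCO1* in *rco1*Δ, and at 0 of the 13, 16 and 14 probes within 2000 bp outside them. The *rco1*Δ arrays stood apart in the spread of their ratios. The median absolute deviation over nuclear probes was 0.53 to 0.70 in the *rco1*Δ arrays, 1.24 to 1.29 in those of *rsc1*Δ, 1.23 to 1.29 in those of *rsc2*Δ, and 1.08 to 1.14 in those of wild type. The *rco1*Δ differences at the GAL genes are therefore also given by classes of probes of like AcH4 level. No spot was saturated, and on every one of the 12 arrays 20 of the 38 GAL probes cleared the background in IP and input alike. With 3 arrays per strain, precision is limited by their number. The p-values measure the spread between biological repeats. A ratio to input removes only part of a probe's own response, so levels along a locus are a description and each comparison is between strains at the same probe. All 12 arrays carry AcH4 over input and none carries histone H3. Histone density was therefore not separated from acetylation in any ratio.

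In wild type the GAL1-GAL10-GAL7 locus alternated between AcH4-poor and AcH4-rich stretches, and most of it was AcH4-poor. Of the 27 probes on chromosome 2, 19 lay below the array median, and the median percentile was 25.2. The lowest probe of the locus, chr2:278986-279045, spans the start of *GAL1* and had log2 ratios of -3.04, -3.24 and -4.00 in wild type, a mean percentile of 2.5. The poor stretch ran on both sides of it, through the shared promoter into the first part of *GAL10* on one side and the first part of *GAL1* on the other. The richest probe, chr2:280466-280524, lay near the 3′ end of *GAL1* and had 2.04, 1.87 and 1.87 in wild type, a mean percentile of 91.6. A second rich stretch ran over *GAL10* from near its 3′ end to past the middle of its ORF. There 4 of 5 probes between chr2:276446 and chr2:277697 averaged from 0.50 to 1.19, and the other, chr2:276950-277009, averaged -0.05. The 2 remaining *GAL10* probes, nearest to its start, averaged -2.19 and -2.52. A single rich probe, chr2:275540-275599, lay at the start of *GAL7* with 0.96, 1.03 and 0.94. Thus *GAL1* and *GAL10* were poor in AcH4 at their starts, and *GAL7* was poor throughout its body. *GAL10* was rich over most of the rest of its ORF. *GAL1* was rich only at its last probe, and its probes before that one lay below the array median.

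**Figure D1:**
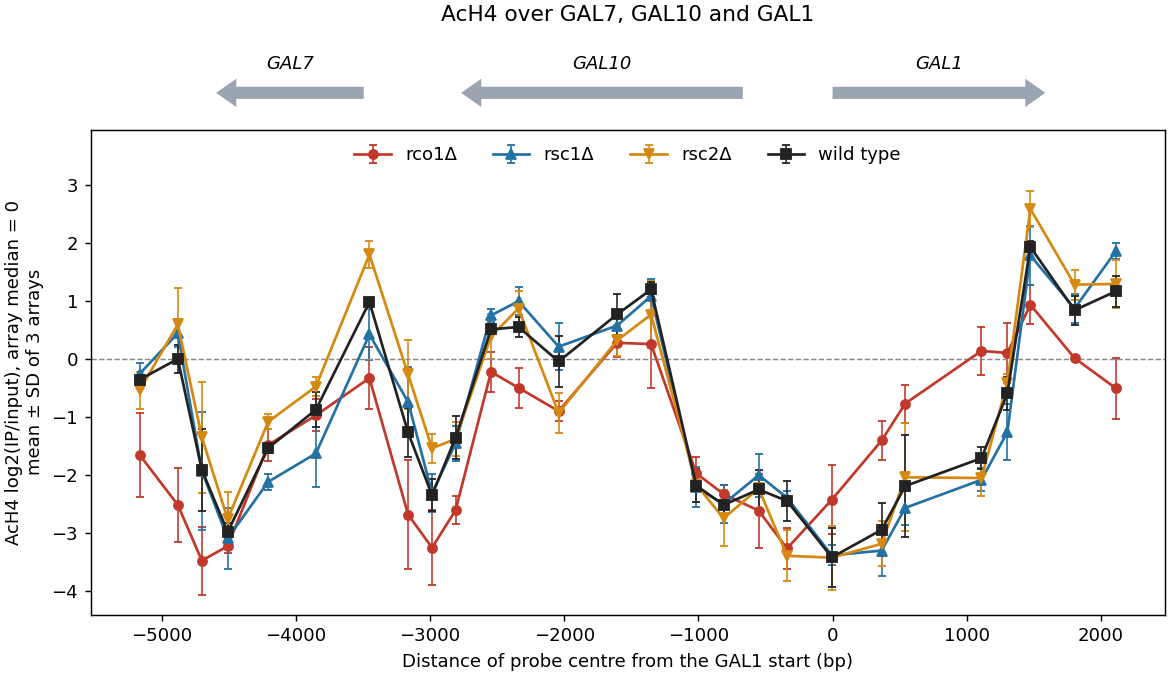
AcH4 over *GAL7*, *GAL10* and *GAL1* in the 4 strains. The x axis is the distance of a probe's centre from the *GAL1* start in bp and the y axis the log2 ratio of IP over input with the array median at 0; points are means and bars the SD of 3 arrays, and lines only join neighboring probes. Over *GAL1* the *rco1*Δ points lie above the others from the start to about the 3′ end and below them at the last *GAL1* probe (0.93 in *rco1*Δ, 1.93 in wild type), while around *GAL7* they lie below at the flanks and near wild type inside the gene.

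The comparison of *rco1*Δ with wild type asks how AcH4 depends on Rpd3S. At the GAL genes AcH4 was more often lower than higher in *rco1*Δ: out of 38, 4 probes were called higher and 19 lower, the lower ones being 50% (limma, adjusted p under 0.05 by Benjamini-Hochberg over the nuclear probes). With loess 1 was called higher and 2 lower (10.3% and 7.28% of all nuclear probes). With normexp the counts were 1 and 6 (13.4% and 14.8%), and with the wild type input for every array 3 and 4 (23.9% and 16.2%). Under these settings the GAL share of lower calls was near or below that of all probes. It stayed above with plain subtraction (16 lower, 16.5% of all), in the deposited table (21, 18.7%) and with equal spread (24, 22.2%). The excess of lower calls thus depended on the processing. The background is large, with 26% of all nuclear probes called higher and 28.1% called lower. The median difference was -0.78 over the GAL probes and -0.24 over all nuclear probes. All 4 probes called higher lay at the start of *GAL1* or inside it. The 19 called lower were spread over the flanks of *GAL7*, the *GAL10* ORF away from its start, the promoter, the 3′ end of *GAL1* with its downstream region, and *GAL2*.

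*GAL1*, the galactokinase gene, held the rises. The largest was at chr2:280101-280160, in the 3′ part of the ORF, where the log2 ratios were -0.21, 0.03 and 0.59 in *rco1*Δ and -1.52, -1.73 and -1.91 in wild type. Every *rco1*Δ array lay above every wild type array, and the difference was 1.85 ± 0.28 (SE, adjusted p = 6.7e-05 in limma). The mean percentile of this probe was 54.2 in *rco1*Δ and 18.5 in wild type. At chr2:279361-279413, nearer to the start, the ratios were -1.10, -1.77 and -1.36 in *rco1*Δ and -3.12, -3.30 and -2.43 in wild type (difference 1.54 ± 0.33, SE, adjusted p = 0.000942 in limma). At chr2:279534-279591 they were -0.45, -0.77 and -1.11 in *rco1*Δ and -1.34, -3.10 and -2.16 in wild type (difference 1.42 ± 0.44, SE, adjusted p = 0.0126 in limma). Neither pair of groups overlapped, although the wild type arrays were widely spread at the second of these probes. At chr2:280294-280353 the mean was 0.10 ± 0.51 in *rco1*Δ and -0.60 ± 0.29 in wild type (SD, n = 3 each), a difference of 0.70 that missed the threshold (adjusted p = 0.0719 in limma). The last *GAL1* probe went the other way. At chr2:280466-280524 the ratios were 0.64, 0.84 and 1.30 in *rco1*Δ and 2.04, 1.87 and 1.87 in wild type, a fall of 0.997 on the log2 scale (adjusted p = 0.0108 in limma), but its mean percentile was 87.0 in *rco1*Δ and 91.6 in wild type. The direction at this probe turned with loess (0.36) and with the wild type input for every array (0.28).

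Averaged over its 5 probes, the *GAL1* ORF stood at -0.21, -0.21 and -0.19 in the 3 *rco1*Δ arrays and at -0.91, -1.31 and -1.10 in the wild type arrays. The mean was -0.21 ± 0.01 in *rco1*Δ and -1.11 ± 0.20 in wild type (SD, n = 3 each), the groups did not overlap, and the mean percentile was 45.9 in *rco1*Δ and 33.3 in wild type. Both channels differed, with the mean log2 IP signal at -0.31 in *rco1*Δ and -0.99 in wild type and the mean log2 input signal at -0.22 in *rco1*Δ and -0.02 in wild type. At chr2:280101-280160 the larger part lay in the input, which averaged -2.16 in *rco1*Δ and -0.79 in wild type, against an IP signal of -1.92 in *rco1*Δ and -2.37 in wild type. This rise depended on the processing: the difference over the ORF was 0.44 with normexp background correction, 0.30 with loess, 0.11 with plain background subtraction and 0.0404 in the deposited value table. None of the 4 probes called higher cleared the background in IP and input on every one of the 12 arrays.

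The region shared by *GAL1* and *GAL10* was AcH4-poor in every strain, as a ratio to input with histone density not measured. The mean over its 3 probes was -2.78 ± 0.11 in *rco1*Δ, -2.60 ± 0.07 in *rsc1*Δ, -3.02 ± 0.31 in *rsc2*Δ, and -2.71 ± 0.17 for wild type (SD, n = 3 each), and the *rco1*Δ and wild type arrays overlapped. The probes inside it differed in direction. At chr2:278986-279045, over the *GAL1* start, the ratios were -1.87, -2.38 and -3.05 in *rco1*Δ and -3.04, -3.24 and -4.00 in wild type. This was a rise of 0.99 ± 0.36 (SE, adjusted p = 0.0268 in limma), the groups overlapped, and the IP signal was well above background on 1 of 3 arrays in each of these strains. Its direction depended on the scaling, since with equal spread on every array the difference was -1.23 (adjusted p = 0.023 in limma), and in the deposited table it was -0.33. At chr2:278652-278711, in the middle of the region, the ratios were -2.92, -3.26 and -3.64 in *rco1*Δ and -2.47, -2.10 and -2.80 in wild type (called lower, adjusted p = 0.0290 in limma). Its IP signal was not well above background on any *rco1*Δ array, so the *rco1*Δ level there is only an upper bound, and the bound leaves no fold. The third probe, chr2:278441-278500, averaged -2.62 ± 0.64 in *rco1*Δ and -2.26 ± 0.33 in wild type (SD, n = 3 each) and was not called. The promoter stayed low on the arrays of both strains, at a mean percentile of 2.2 in *rco1*Δ and 7.9 in wild type.

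The step from the shared promoter to the *GAL1* ORF was larger in *rco1*Δ. The *GAL1* ORF lay above the shared region by 2.45, 2.58 and 2.68 in the *rco1*Δ arrays and by 1.68, 1.33 and 1.81 in the wild type arrays, and the groups did not overlap. This contrast is taken within an array, so the centering of the array does not enter it, although its spread does. The difference between the strains was 0.97, and it ran from 0.19 with normexp to 3.51 with equal spread on every array. The same step toward *GAL10* was 2.00 ± 0.34 in *rco1*Δ and 2.46 ± 0.17 in wild type (SD, n = 3 each), with groups that overlapped. The *GAL1* ORF minus the *GAL10* ORF was 0.71, 0.70 and 0.30 in *rco1*Δ and -0.68, -1.04 and -0.85 in wild type, without overlap. These values compare strains and do not rank the genes, since the probes of each gene have their own response.

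*GAL10*, the epimerase gene, fell at probes from near its 3′ end to past its middle, while those nearest to its start were not called. Of its 7 probes, 4 were called lower, 0 higher and 3 were not called. The largest fall was at chr2:276651-276710, with -0.85, -0.51 and -0.16 in *rco1*Δ and 0.71, 0.37 and 0.56 in wild type (difference -1.05 ± 0.28, SE, adjusted p = 0.00468 in limma). The groups did not overlap, and the mean percentile was 29.9 in *rco1*Δ and 63.1 in wild type. The other 3 called probes, at chr2:276446-276505, chr2:276950-277009 and chr2:277640-277697, differed by -0.73, -0.86 and -0.94. At the last of these, *rco1*Δ repeat 3, at 0.95, came close to the lowest wild type array, repeat 1. The probe between them, chr2:277386-277444, averaged 0.27 ± 0.25 in *rco1*Δ and 0.76 ± 0.35 in wild type (SD, n = 3 each) and was not called (adjusted p = 0.141 in limma). The 2 probes nearest to the *GAL10* start averaged -1.98 and -2.34 in *rco1*Δ and -2.19 and -2.52 in wild type, differences of 0.21 and 0.19 with overlapping arrays. Over the whole ORF the mean was -0.78 ± 0.24 in *rco1*Δ and -0.25 ± 0.02 in wild type (SD, n = 3 each). The mean log2 IP signal was -0.48 in *rco1*Δ and 0.03 in wild type, whereas the input was 0.18 in *rco1*Δ and 0.15 in wild type, so this difference lay in the IP channel.

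At *GAL7*, the uridyltransferase gene, no probe inside the ORF was called while both flanks fell. The level inside the ORF depended on the scaling, with a mean difference of -0.10 in the main setting, -1.93 with equal spread on every array, -1.23 in the deposited table and 0.49 with loess. Its 3 coding probes differed by -0.25, 0.05 and -0.10 and none was called. The ORF averaged -1.90 ± 0.21 in *rco1*Δ and -1.80 ± 0.07 in wild type (SD, n = 3 each), but the narrower spread of the *rco1*Δ arrays put the same ratio at a mean percentile of 8.8 in *rco1*Δ and 19.1 in wild type. All 3 probes downstream of *GAL7* were called lower. The largest difference at any GAL probe was there, at chr2:274112-274171, with -2.96, -2.82 and -1.79 in *rco1*Δ and -0.17, 0.27 and -0.12 in wild type (difference -2.52 ± 0.35, SE, adjusted p = 3.1e-05 in limma). Its mean percentile was 3.1 in *rco1*Δ and 49.5 in wild type. Most of this difference lay in the input channel, at 4.36 in *rco1*Δ and 2.47 in wild type, against an IP signal of 1.94 in *rco1*Δ and 2.60 in wild type. With the wild type input used for every array the difference at this probe was -0.63. At chr2:273828-273884, farther downstream, the ratios were -2.46, -1.44 and -1.07 in *rco1*Δ and -0.34, -0.39 and -0.36 in wild type.

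All 4 probes between *GAL7* and *GAL10*, a stretch that holds the *GAL7* promoter and the 3′ end of *GAL10*, were also called lower, 3 of them by 1.25 to 1.42 on the log2 scale. At the AcH4-rich probe by the *GAL7* start, chr2:275540-275599, the ratios were -0.94, -0.15 and 0.08 in *rco1*Δ and 0.96, 1.03 and 0.94 in wild type (difference -1.31 ± 0.31, SE, adjusted p = 0.0022 in limma). The groups did not overlap, and its mean percentile was 37.3 in *rco1*Δ and 74.1 in wild type. At chr2:276183-276240, next to the *GAL10* 3′ end, the ratios were -2.90, -2.47 and -2.48 in *rco1*Δ and -1.27, -1.05 and -1.77 in wild type (difference -1.25 ± 0.29, SE, adjusted p = 0.00173 in limma). At chr2:276008-276064 the IP signal was not well above background on any *rco1*Δ array. In the main setting the mean ratio there was at least 1.40-fold lower in *rco1*Δ, with measured means of -3.26 in *rco1*Δ and -2.36 in wild type (adjusted p = 0.0269 in limma). For this bound each *rco1*Δ array's IP signal was set to the lowest signal well above background on that array where it lay under it. The bound does not hold for every processing. With normexp the difference at this probe was 0.0045 (adjusted p = 0.994 in limma), and the call was kept in 6 of 11 other settings. Averaged over the 4 probes, the stretch stood at -2.86, -2.11 and -1.71 in *rco1*Δ and at -0.96, -0.83 and -1.23 in wild type. The IP signal averaged -1.23 in *rco1*Δ and -0.24 in wild type, and the input 0.89 in *rco1*Δ and 0.63 in wild type. Downstream of *GAL1* both probes fell as well, by 0.83 at chr2:280795-280854 and by 1.67 at chr2:281102-281161. The input there averaged 1.01 in *rco1*Δ and 0.06 in wild type, and with the wild type input for every array the mean difference of the 2 probes was -0.30 in place of -1.25. The input arrays overlapped, at 1.88, 0.25 and 0.91 in *rco1*Δ and 0.40, -0.06 and -0.16 in wild type. The IP signal was 1.44, 0.11 and 1.05 in *rco1*Δ and 1.48, 1.02 and 1.08 in wild type.

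*GAL2*, the permease gene, lies alone on chromosome 12 and stood low at its 5′ side and high toward its 3′ end. In wild type its upstream probe chr12:289951-290010 had -2.30, -2.34 and -2.13, a pair of probes in the 5′ part of the ORF averaged -1.99 and -1.22, and the 3 probes of the 3′ part averaged 2.30, 1.56 and 3.25. The highest, chr12:291656-291711, had 3.38, 3.14 and 3.24 in wild type and a mean percentile of 99.4, the highest AcH4 of any GAL probe. In *rco1*Δ the same probe had 1.33, 0.87 and 2.02 (difference -1.85 ± 0.33, SE, adjusted p = 0.00024 in limma). The groups did not overlap, yet its mean percentile in *rco1*Δ was still 95.5. At chr12:291182-291241 the ratios were 0.56, 1.02 and 1.36 in *rco1*Δ and 2.11, 2.53 and 2.26 in wild type (difference -1.32 ± 0.32, SE, adjusted p = 0.0028 in limma), with mean percentiles of 87.8 in *rco1*Δ and 95.0 in wild type. The probe over the *GAL2* start, chr12:290193-290252, fell by 1.08 on the log2 scale (adjusted p = 0.0103 in limma) and its mean percentile was 11.8 in *rco1*Δ and 44.6 in wild type. The fourth call in this window was upstream, at chr12:289474-289531, with a mean of -1.64 ± 0.50 in *rco1*Δ and -0.77 ± 0.17 in wild type (SD, n = 3 each).

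In the 5′ part of *GAL2* the 2 AcH4-poor probes differed by 0.33 and 0.03 and were not called. The 3 downstream probes were not called either. One of them, chr12:291946-292005, lost 1 *rco1*Δ and 1 wild type spot to outlier flags and rests on 2 arrays in each of these strains. Over the *GAL2* ORF the mean was -0.12 ± 0.26 in *rco1*Δ and 0.61 ± 0.20 in wild type (SD, n = 3 each), and the groups did not overlap. The IP signal of the ORF averaged 0.60 in *rco1*Δ and 0.70 in wild type, whereas the input averaged 0.61 in *rco1*Δ and -0.05 in wild type. With the wild type input for every array, the difference over the ORF was -0.0766 in place of -0.74. On the mean of the 3 arrays the difference at *GAL2* thus lay mostly in the input channel. That mean leaned on *rco1*Δ repeat 1. The ORF input was 1.22, 0.28 and 0.33 in *rco1*Δ and 0.28, -0.22 and -0.21 in wild type. Its IP signal was 1.20, -0.02 and 0.61 in *rco1*Δ and 0.86, 0.76 and 0.47 in wild type. Without *rco1*Δ repeat 1 the ratio difference over the ORF was still -0.74, so its division between the channels is uncertain.

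**Figure D2:**
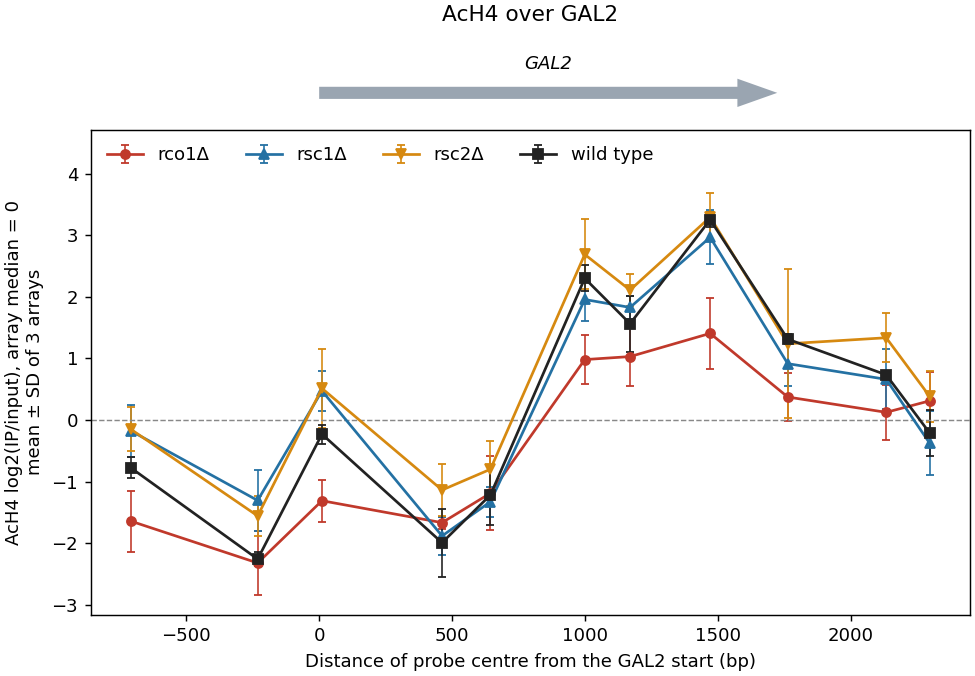
AcH4 over *GAL2* in the 4 strains. The x axis is the distance of a probe's centre from the *GAL2* start in bp and the y axis the log2 ratio of IP over input with the array median at 0; points are means and bars the SD of 3 arrays (2 arrays of *rco1*Δ and of wild type at the probe just after the 3′ end). The 3 probes of the 3′ part reach 0.98 to 1.41 in *rco1*Δ and 1.56 to 3.25 in wild type, while all strains are below 0 at the 2 poor probes of the 5′ part.

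Across the genome, AcH4-poor probes were higher and AcH4-rich probes lower in *rco1*Δ than in wild type, so the GAL probes were set beside probes of the same level. Levels came from the 6 arrays of the RSC mutants, whose values are not part of the difference although they share the fit's estimate of the spread, and were used to sort the nuclear probes into 10 classes of 4148 each. In the 3 poorest classes together, 70.5% of all probes were called higher and 2.84% lower, with a median difference of 1.43. Of the 17 GAL probes in these classes, 4 were called higher and 4 lower, and their median difference was 0.03. Between the poor and the rich classes, the fifth class had 14.6% of its probes called lower and a median of -0.08, and 3 of its 4 GAL probes were called lower, with a median of -0.86. The seventh class had 30.6% called lower and a median of -0.52, and all 3 of its GAL probes were called lower, with a median of -1.08, among them the probe downstream of *GAL7* at -2.52. The fourth class held 2 GAL probes, 1 called lower, and the sixth held 1, which was not called. In the 3 richest classes, 65.9% of all probes were called lower, with a median difference of -0.99, and 8 of the 11 GAL probes were called lower, with a median of -0.997. Among the AcH4-poor GAL probes, the rises at *GAL1* (0.99, 1.54, 1.42 and 1.85) were beside medians of 2.09 and 1.45 in the 2 poorest classes, to which these 4 probes belong. The other poor probes of the *GAL10* start, the *GAL7* ORF, the promoter and the *GAL7*-*GAL10* interval had differences between -1.25 and 0.21, and the remaining poor probes were 3 at *GAL2*, between -0.06 and 0.33, and 1 downstream of *GAL7*, at -1.56. These are descriptions over few probes, which share 2 loci, and no test was run on them.

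**Figure D3:**
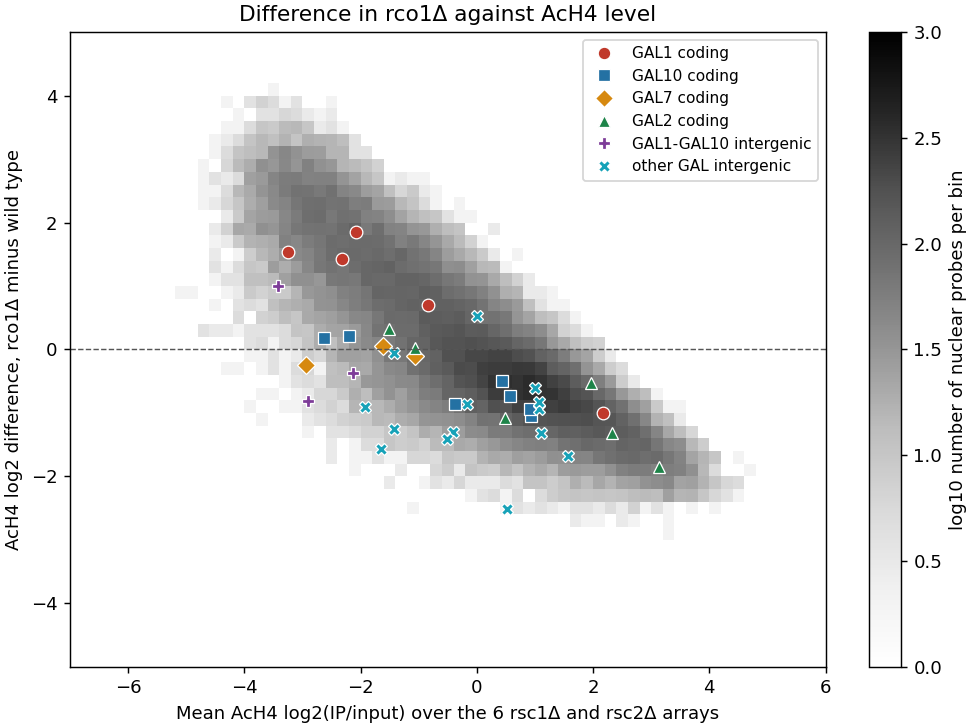
Difference between *rco1*Δ and wild type against AcH4 level. The x axis is the mean log2 ratio of a probe over the 6 *rsc1*Δ and *rsc2*Δ arrays, the y axis the log2 ratio in *rco1*Δ minus wild type; gray shading gives the number of nuclear probes per bin on a log10 scale and colored points are the 38 GAL probes. At low AcH4 the 4 probes called higher, at 0.99 to 1.85, lie above the other GAL probes, which run down to -1.56, and the lowest point of all, at -2.52, is a probe downstream of *GAL7*.

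The comparisons of *rsc1*Δ and *rsc2*Δ with wild type ask how AcH4 depends on the 2 forms of RSC. In *rsc1*Δ, 0 of the 38 GAL probes were called higher and 0 lower, where 0.0482% of all nuclear probes were called higher and 0.0603% lower. Without adjustment, 5 GAL probes had p under 0.05 (13.2%), as did 8.05% of all probes. In *rsc2*Δ, 0 GAL probes were called higher and 0 lower, against 0.154% and 0.374% of all probes, and 9 GAL probes (23.7%) had an unadjusted p under 0.05 against 14.1% of all probes. Neither count was moved by any other setting tried in limma. The differences of *rsc1*Δ ran from -0.75 to 0.95, and those of *rsc2*Δ from -0.95 to 1.00.

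Within those limits some parts of the loci had arrays that did not overlap. Upstream of *GAL2*, both mutants stood higher than the same 3 wild type arrays. The mean over the 2 probes was -0.74 ± 0.44 in *rsc1*Δ cells, -0.85 ± 0.28 in *rsc2*Δ cells and -1.51 ± 0.14 in wild type (SD, n = 3 each). Their mean log2 input was -0.12 in *rsc1*Δ, -0.34 in *rsc2*Δ and 0.16 in wild type. The IP signal was -0.70 in *rsc1*Δ, -1.04 in *rsc2*Δ and -1.22 in wild type. In *rsc2*Δ the larger part of the difference lay in the input, and its IP arrays overlapped those of wild type. The lower of these probes, chr12:289951-290010, had -1.87, -1.10 and -0.95 in *rsc1*Δ, while *rsc2*Δ had -1.69, -1.19 and -1.78 and the wild type arrays -2.30, -2.34 and -2.13. Each mutant array lay above each wild type array, but the adjusted p was 0.457 for *rsc1*Δ and 0.332 for *rsc2*Δ (limma). The input of chromosome 12 as a whole was higher in *rsc1*Δ, with a median of 0.17, 0.16 and 0.12, than in wild type, with -0.02, -0.03 and -0.03, and its part in the *GAL2* ratios was not tested. In the *GAL7*-*GAL10* interval the mean was -0.35 ± 0.22 in *rsc2*Δ and -1.005 ± 0.204 in wild type (SD, n = 3 each), with no overlap. At the middle of the shared promoter, chr2:278652-278711, the ratios were -3.84, -2.96 and -3.40 in *rsc2*Δ cells, against -2.47, -2.10 and -2.80 in wild type cells, a difference of -0.95 ± 0.30 (SE, adjusted p = 0.16 in limma). In *rsc1*Δ the same probe averaged -2.40 ± 0.12 (SD, n = 3), a difference from wild type of 0.06. The *GAL1* ORF averaged -1.49 ± 0.15 in *rsc1*Δ cells, -1.03 ± 0.23 in *rsc2*Δ cells and -1.11 ± 0.20 in wild type (SD, n = 3 each), and the *rsc1*Δ arrays did not overlap the wild type arrays.

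**Figure D4:**
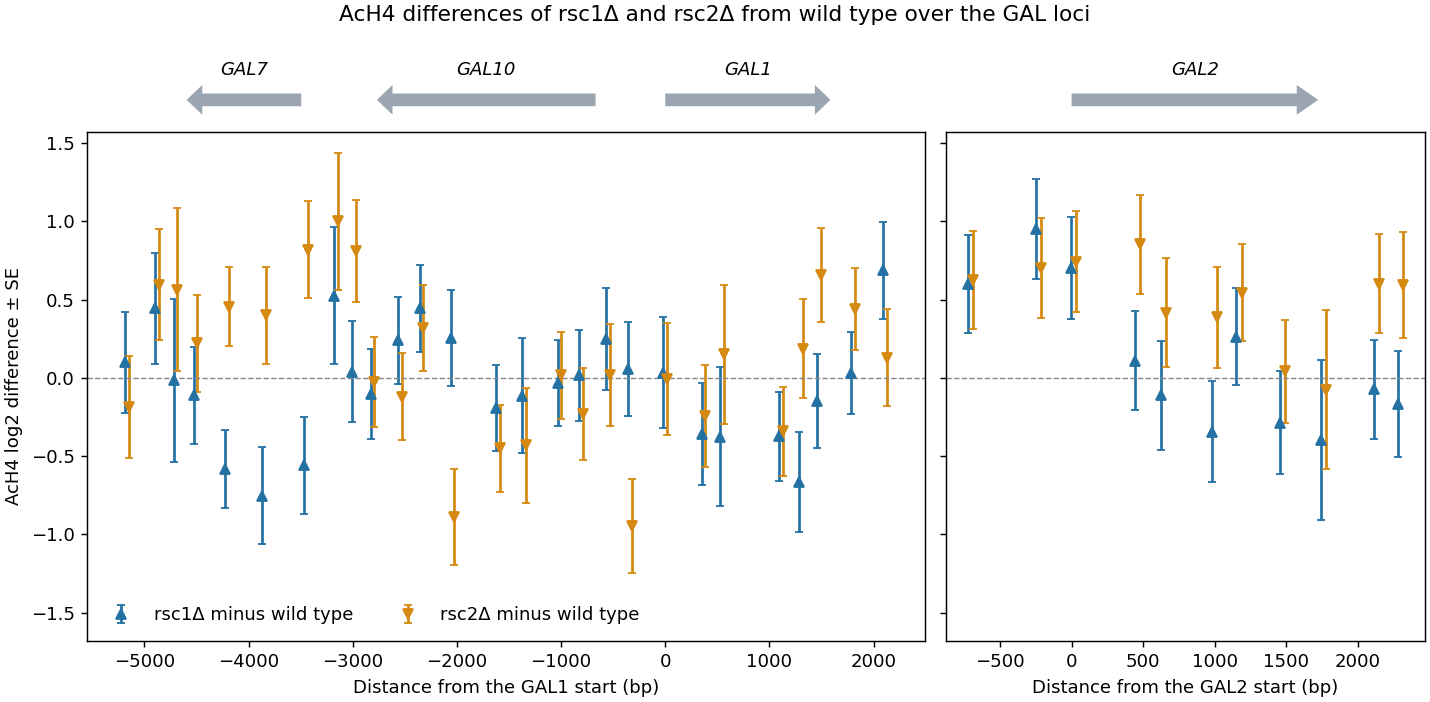
Differences of *rsc1*Δ and *rsc2*Δ from wild type at the 38 GAL probes. The x axes are distances from the *GAL1* start (left) and the *GAL2* start (right) in bp, the y axis is the difference in log2 ratio, and bars are the SE of the limma fit; the points of the mutants are shifted slightly sideways so that they can be told apart. The *rsc2*Δ points lie above the *rsc1*Δ points over *GAL7* and its start, where the largest gap is 1.38, and no point passed the threshold against wild type.

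Set against each other, *rsc1*Δ and *rsc2*Δ differed most at the start of *GAL7*. Out of 38, 0 probes stood higher by that call in *rsc1*Δ and 1 stood lower, where 0.494% of all nuclear probes were called higher and 0.448% lower. At an unadjusted p under 0.05 there were 12 GAL probes (31.6%) and 12.1% of all probes. The called probe was chr2:275540-275599 at the *GAL7* start, with 0.02, 0.90 and 0.33 in *rsc1*Δ cells, against 2.07, 1.65 and 1.66 in *rsc2*Δ cells (difference -1.38 ± 0.31, SE, adjusted p = 0.0413 in limma). The wild type arrays, between 0.94 and 1.03, lay between the mutants and overlapped neither. The call was near the threshold. It was lost in 10 of 12 other settings, among them the replicate block (adjusted p = 0.0722), slide as a block (0.0501) and the compared arrays only (0.0874), all in limma, and the adjusted p ran from 0.0158 to 1 over those settings. It was kept for 3 of the 12 arrays left out in turn (*rsc1*Δ repeat 2 and *rco1*Δ repeats 1 and 3), with adjusted p between 0.0259 and 0.177 over the 12, while the difference stayed between -1.62 and -1.18. A pair of probes inside *GAL7*, chr2:274786-274844 and chr2:275141-275200, differed by -1.04 and -1.15 with adjusted p of 0.0595 and 0.091 (limma) and without overlap of the arrays. Over the *GAL7* ORF the arrays stood at -1.86, -2.57 and -2.43 in *rsc1*Δ cells, against -1.47, -1.36 and -1.51 in *rsc2*Δ cells. The difference had the other sign over *GAL10*, at -0.16 ± 0.05 in *rsc1*Δ cells, against -0.51 ± 0.26 in *rsc2*Δ cells (SD, n = 3 each), and over the shared promoter, at -2.60 ± 0.07 in *rsc1*Δ cells, against -3.02 ± 0.31 in *rsc2*Δ cells (SD, n = 3 each). Single probes there differed about as much as those inside *GAL7*. The difference was 1.14 at chr2:276950-277009 in *GAL10* (adjusted p = 0.089 in limma). It was 1.00 at chr2:278652-278711 in the shared promoter (adjusted p = 0.139 in limma).

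In the main setting the order of the strains differed from gene to gene. The place of *rco1*Δ in it depended on the processing. Its difference from wild type over *GAL1* was 0.0404 in the deposited table, and over *GAL2* it was -0.0766 with the wild type input for every array. Over *GAL7* the difference was -1.93 with equal spread and 0.49 with loess, and over *GAL10* it was -1.36 and -0.21 with these 2 settings. Over the *GAL1* ORF *rco1*Δ was the highest strain and overlapped none of the others, followed by *rsc2*Δ, wild type and *rsc1*Δ, of which *rsc2*Δ and wild type overlapped. Over the *GAL10* ORF the order was *rsc1*Δ, wild type, *rsc2*Δ and *rco1*Δ, with overlap between *rsc2*Δ and *rco1*Δ. Over the *GAL7* ORF it was *rsc2*Δ, wild type, *rco1*Δ and *rsc1*Δ, and only *rsc2*Δ was separate from the next strain. Over the *GAL2* ORF it was *rsc2*Δ at 1.11 ± 0.19, *rsc1*Δ at 0.67 ± 0.10, wild type at 0.61 ± 0.20 and *rco1*Δ at -0.12 ± 0.26 (SD, n = 3 each), and *rsc1*Δ and wild type overlapped.

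**Figure D5:**
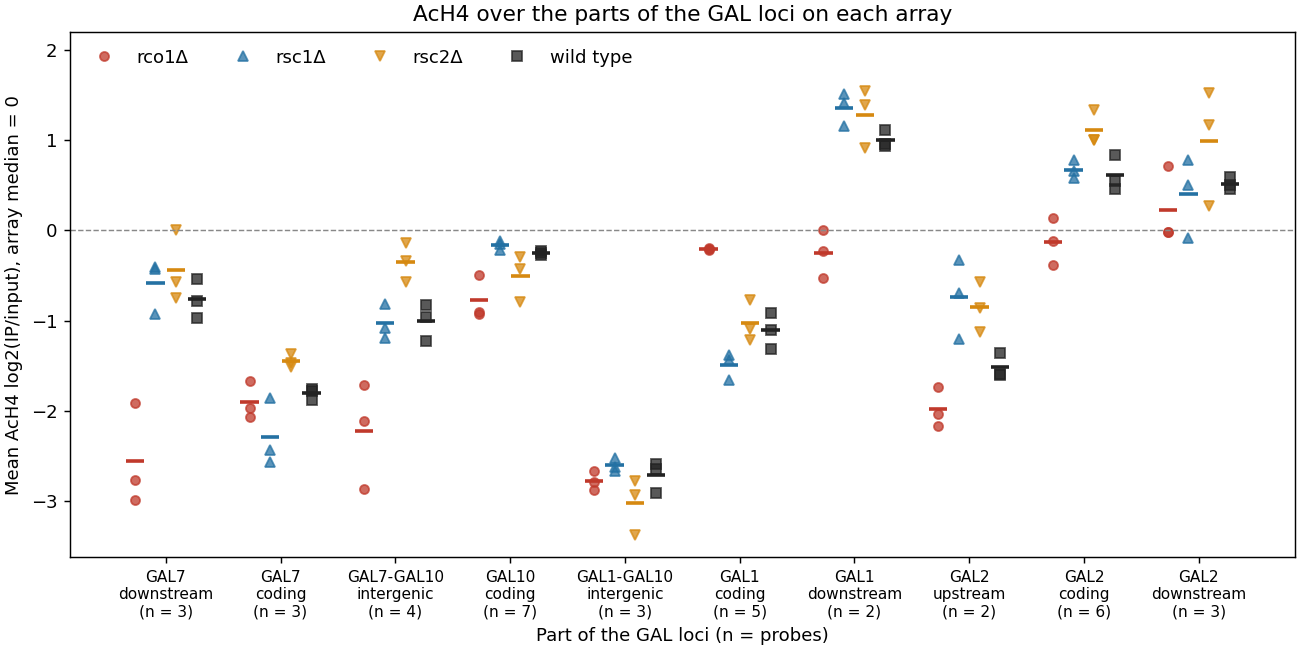
Mean AcH4 of each part of the GAL loci on each array. The x axis lists the parts with their number of probes, the y axis is the mean log2 ratio of IP over input with the array median at 0; each point is 1 array and each horizontal line the mean of 3 arrays. The *rco1*Δ arrays are the highest over *GAL1* coding (about -0.21) and the lowest downstream of *GAL7*, between *GAL7* and *GAL10* and downstream of *GAL1*, while all strains lie between -3.37 and -2.52 over the shared promoter.

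Arrays were scanned on 5 days, and 1 *rco1*Δ array (repeat 1) shared a day with 1 wild type array (repeat 3). Between these 2 arrays the difference was 0.89 over the *GAL1* ORF, -0.67 over the *GAL10* ORF, 0.11 over the *GAL7* ORF, -0.67 over the *GAL2* ORF, -1.63 over the *GAL7*-*GAL10* interval and 0.24 over the shared promoter. The sign was that of the comparison of all arrays for *GAL1*, *GAL10*, *GAL2* and the *GAL7*-*GAL10* interval. There each *rco1*Δ array lay on the same side of every wild type array, so any pair had to give this sign. The match is therefore no test of scan day. The sign was the opposite for the *GAL7* ORF and the promoter, where the differences of all arrays were -0.10 and -0.06. At the probe by the *GAL7* start, *rsc1*Δ minus *rsc2*Δ was -1.40 on the day with 2 arrays of each strain and -1.33 on the day with 1 array of each. Codes for slide and position recurred, with 8 distinct codes among the 12 arrays. Each *rco1*Δ array shared its code with an array of another strain scanned on another day. How this bears on the *rco1*Δ ratios was not tested.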

How the data were processed

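AcH4 ChIP and input DNA were amplified by double T7 linear amplification and hybridized to Agilent yeast 4x44K tiling arrays, with 3 arrays per strain and no dye swap. The authors deposited, for each array, the scanner output of Agilent Feature Extraction 10.5.1.1, which holds a linear intensity per spot and channel, and a series table of normalized log2 ratios. The methods name limma with median normalization within arrays and Aquantile between arrays. The processed signals had the background subtracted and the dyes corrected by the scanner software. The median of a column of the deposited log2 table was between -0.03 and 0.08, and its columns correlated with the scanner log2 ratios with r between 0.69 and 0.99 (across probes), which gives their direction. The low end was in *rco1*Δ, with r of 0.69 to 0.95. In the other strains r was 0.91 to 0.99 for *rsc1*Δ, 0.92 to 0.99 for *rsc2*Δ and 0.93 to 0.98 for wild type. The spread was brought close between arrays in that table (median absolute deviation between 0.81 and 0.89), by a step not given in the sources used here.

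From the deposited processed intensity, log2 of Cy5 over Cy3 was computed for the 41775 non-control probes of 45219 spots, without outlier-flagged spots (2 of 456 at the GAL probes), and centered on each array's median. The 12 arrays of 4 groups were fitted probe by probe in limma 3.58.1 under R 4.3.3 (functions lmFit, eBayes), with Benjamini-Hochberg adjustment over 41480 nuclear probes. Input was between 78.9% and 99.8% and IP between 81.8% and 98.4% well above background. A lost input probe was one lower by more than 2 on the log2 scale. Part means and percentiles have no test. For *rco1*Δ against wild type the fit was tested on simulated data with 200 of 41480 probes changed: it called 87 probes, 3.45% of them false, and recovered 76% of changes of 2 and 8% of changes of 1. In the real comparison 26% of nuclear probes were called higher and 28.1% lower, so the adjusted threshold was less strict there. The simulated strains also had the same baseline and the same spread at each probe, whereas the real *rco1*Δ ratios were narrower. The recovered shares and the false share therefore do not carry over to the real comparison.

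The members, lists and classes were chosen with earlier results of these data known. The text names *GAL1*, *GAL10*, *GAL7* and *GAL2*, with the probes of their windows. Other galactose pathway genes, genes of like pattern and promoter motifs were planned and not analysed here, since neither a probe annotation nor a genome of the array's build was used. Alternatives were other background corrections, loess, the deposited table, equal spread, dim probes left out, a replicate block, scan day, the compared arrays only, a stricter call, probes within 100 bp of a coding end left out, and each array left out. Slide as a block, percentiles, values within a scan day, and counts with the wild type input for every array were chosen after seeing the data, as were the 10 level classes. Plots were drawn with matplotlib 3.10.9.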

Additional observations from a re-analysis of the deposited data

Results flagged for a closer look

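The probe at the *GAL7* start, chr2:275540-275599, was flagged because the differences of *rsc1*Δ and *rsc2*Δ from wild type differed from each other by a test of that difference. *rsc1*Δ minus *rsc2*Δ was -1.38 on the log2 scale (adjusted p = 0.0413 in limma), with differences from wild type of -0.56 for *rsc1*Δ and 0.82 for *rsc2*Δ. The call was lost in 10 of 12 other settings. The 3 *rsc1*Δ arrays all lay below the 3 *rsc2*Δ arrays. The IP signal averaged 1.85 in *rsc1*Δ cells, against 3.25 in *rsc2*Δ cells, and the input 1.27 in *rsc1*Δ cells, against 1.31 in *rsc2*Δ cells, so the difference lay in the IP channel. Groups of 3 arrays are too small for a test for outlying arrays.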

How the results depend on the processing

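For *rco1*Δ against wild type, the 4 GAL probes called higher became 0 with plain background subtraction, 1 with normexp, 1 with loess after normexp, 1 in the deposited table, 1 with equal spread on every array, 0 without dim probes and 2 at adjusted p under 0.01, and were between 3 and 5 when 1 array was left out. The 19 called lower became 6 with normexp, 2 with loess, 4 with the wild type input for every array and 8 at adjusted p under 0.01, and were between 13 and 20 when 1 array was left out. Over all nuclear probes, 26% higher and 28.1% lower became 7.7% and 16.5% with plain subtraction, 13.4% and 14.8% with normexp, 10.3% and 7.28% with loess, 13.2% and 18.7% in the table, 21.4% and 22.2% with equal spread, 23.9% and 16.2% with the wild type input, 18.3% and 39.5% without dim probes, and 20.9% and 16.9% at the stricter call. The replicate numbers share only a label, and with them as a replicate block the counts were 4 higher and 19 lower. For *rsc1*Δ against *rsc2*Δ, the 1 probe called lower became 0 with plain subtraction, normexp, loess, the table, equal spread, the wild type input, the replicate block, slide as a block, the compared arrays only and the stricter call, was 3 without dim probes, and was between 0 and 2 when 1 array was left out.

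The mean *rco1*Δ difference over *GAL7* coding (-0.10) was -0.37 with plain subtraction, 0.33 with normexp, 0.49 with loess, -1.23 in the table, -1.93 with equal spread and -0.28 with the wild type input, and -0.21 to -0.01 with 1 array left out. Over *GAL10* (-0.52) it was -0.35 with normexp, -0.21 with loess, -0.73 in the table, -1.36 with equal spread and -0.91 without dim probes, and -0.66 to -0.45 with 1 array left out. Over the shared promoter (-0.06) it was -1.09 with plain subtraction, 0.26 with normexp, -2.02 in the table, -2.76 with equal spread, -0.37 without dim probes and -0.59 without probes near a coding end (which rests in part on a probe whose IP was not well above background on any *rco1*Δ array), and -0.16 to -0.0017 with 1 array left out. Over *GAL1* (0.90) it was 0.11 with plain subtraction, 0.44 with normexp, 0.30 with loess, 0.0404 in the table, 0.75 with equal spread, 0.70 with the wild type input and -0.997 without dim probes, which leaves the 3′ probe alone, and 0.80 to 1.00 with 1 array left out. Over *GAL2* (-0.74) it was -1.26 with plain subtraction, -0.39 with loess, -1.31 in the table, -0.0766 with the wild type input and -0.98 without dim probes, and -0.87 to -0.61 with 1 array left out.

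Single probes reversed at chr12:289474-289531 (0.43 with loess), chr12:291182-291241 (0.60 with the wild type input), chr2:276008-276064 (0.0045 with normexp), chr2:278652-278711 (0.39 with plain subtraction, 0.36 with normexp), chr2:278986-279045 (-0.33 in the table, -1.23 with equal spread), chr2:279361-279413 (-0.0128 with plain subtraction, -0.71 in the table), chr2:280466-280524 (0.36 with loess, 0.28 with the wild type input) and chr2:280795-280854 (0.28 with the wild type input). The causes were not tested.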
